A study of Xenopus laevis with 5 samples.

Results

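Cyclin A1 and cyclin D1 are represented by 4 genes in Xenopus laevis, whose genome carries a long (.L) and a short (.S) homeolog of many genes: ccna1.L, ccna1.S, ccnd1.L and ccnd1.S. They were taken by platform gene symbol, which gave 1 probe set for each of the 4 genes, 4 of 15491 probe sets after control probe sets were removed. No probe set shared between several symbols held any of them. They were picked because the ccna1 genes were lower and the ccnd1 genes higher in one of the study's groups, so their difference between the groups is given as a description, with no test.

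RNA came from animal cap explants, the presumptive ectoderm that becomes epidermis in culture, and was read on Affymetrix arrays with 1 colour. Embryos had received synthetic RNA at the 2-cell stage, ICD in 3 samples and HMM in 2 samples. All were kept in 0.1X MMR, cut at stage 9 to 10, and held in Danilchik's medium with 0.1% BSA up to the equivalent of stage 22. The labels leave both abbreviations unexplained; the Notch intracellular domain, an activator of the pathway, and a shortened Mastermind, a blocker, are the usual readings, and neither reading entered a test. The labels give neither the strain nor the number of explants in a sample, and no uninjected explants were analysed here, so for no gene can it be told which group moved; rose and fell below mean higher and lower in ICD. Nothing in the labels says that the replicates were separate batches of embryos, so p-values measure the spread between these samples, which may be technical.

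Cyclins are the regulatory subunits of cyclin-dependent kinases (CDKs). D-type cyclins bind CDK4 and CDK6, respond to growth signals, and start the phosphorylation of the retinoblastoma protein that lets a cell leave G1. A-type cyclins bind CDK2 and CDK1 and act in S phase and at the entry to mitosis; in Xenopus, cyclin A1 is the form supplied to the egg and used in the rapid early cleavages, while cyclin A2 serves later, somatic divisions. Larval frog epidermis contains multiciliated cells and ionocytes that have left the cell cycle, and an inner layer in which cells still divide.

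The arrays had median signals of 62.1 to 72.7. The median of 24 poly-A spike-in control probe sets was 2.95 on ICD replicate 3 and 318.2 to 355.5 on the other arrays, so the cyclin differences and the calls named below are also given without that array. The arrays of replicate 1 stood at 32.8 (ICD) and 33.5 (HMM) on the second principal component (27.2% of the variance), the other arrays at -30.7, -26.4 and -9.2. The epidermal keratin genes krt12.4.L and krt12.4.S were bright on every array, at 5965.8 to 7729.8 and 4432.9 to 7454.9. Of 12 measured multiciliated cell markers 11 were lower in ICD by limma's test, as were 10 of 10 ionocyte markers, against 3.5% of the 9981 kept probe sets. In RNA from whole explants, fewer cells of a type and less RNA per cell cannot be told apart.

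The signal of both cyclin A1 genes was far lower in ICD than in HMM explants. The ccna1.L probe set read 22.0, 70.7 and 92.2 on ICD replicates 1 to 3, and 268.0 and 1042.7 on HMM replicates 1 and 2. Its highest ICD value lay below its lowest HMM value by a factor of 2.91. The mean was 61.6 ± 36.0 in ICD and 655.4 ± 547.8 in HMM (SD, n = 3 and 2). On the scale used throughout, log2 of the signal plus a pseudocount of 5.9, the ICD minus HMM difference was -3.17 ± 0.70 (SE), a factor of 9.02, and this scale understates changes of dim probe sets such as this one in ICD.

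The ccna1.S signal was 28.9, 54.1 and 104.6 on the ICD arrays, against 457.0 and 781.2 with HMM. The gap between its groups was wider, a factor of 4.37 between the nearest arrays. Its means were 62.5 ± 38.5 in ICD and 619.1 ± 229.2 in HMM (SD, n = 3 and 2), with a difference of -3.30 ± 0.50 (SE). In ICD replicate 1 both ccna1 genes were below 42.6, the signal above which a probe set had to lie on at least 2 arrays to be kept, while on the other 4 arrays both were above it.

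The size of the cyclin A1 difference depended on single arrays. For ccna1.L it was -2.20 when HMM replicate 2 was left out and -4.14 when HMM replicate 1 was left out. Leaving out ICD replicate 1, 2 or 3 gave -2.63, -3.36 or -3.54. For ccna1.S the same omissions gave -2.92 and -3.68, and -2.89, -3.28 or -3.72. Since the groups do not overlap for either gene, leaving out an array could not turn the sign. Same-numbered arrays gave -3.30 and -3.77 for ccna1.L in replicates 1 and 2, and -3.73 and -3.71 for ccna1.S.

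The signal of both cyclin D1 genes was higher in ICD, by a smaller margin. The ccnd1.L signal was 823.3, 823.4 and 893.6 on the ICD arrays, against 574.4 and 412.8 with HMM. Its means were 846.8 ± 40.6 in ICD and 493.6 ± 114.3 in HMM (SD, n = 3 and 2), and the lowest ICD array exceeded the highest HMM array by a factor of 1.43. The difference was 0.79 ± 0.24 (SE), a factor of 1.73. Leaving out HMM replicate 2 gave 0.55, HMM replicate 1 gave 1.02 and ICD replicate 3 gave 0.75.

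The ccnd1.S signal was 1506.3, 1260.8 and 1415.3 on the ICD arrays, against 754.4 and 627.7 with HMM. Here the nearest arrays of the groups differed by a factor of 1.67. Its means were 1394.1 ± 124.1 in ICD and 691.0 ± 89.6 in HMM (SD, n = 3 and 2). The difference was 1.01 ± 0.21 (SE), a factor of 2.01, and ran from 0.88 to 1.14 with each array left out, with 1.00 without ICD replicate 3.

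**Figure D1:**
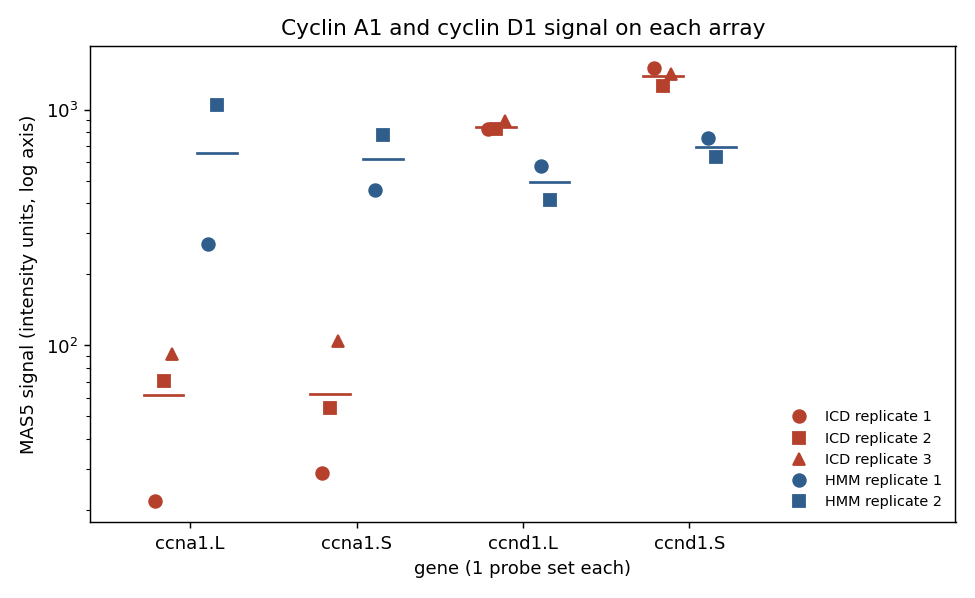
MAS5 signal (log axis) of the 4 cyclin genes on every array; marker shape gives the replicate number, colour the group, and horizontal bars the group means. For the ccna1 genes the HMM arrays lie above all ICD arrays (457.0 and 781.2 against at most 104.6 for ccna1.S), and for the ccnd1 genes below them (754.4 and 627.7 against at least 1260.8 for ccnd1.S).

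For 4 of the 4 genes the ICD and HMM arrays did not overlap, lower in ICD for the ccna1 genes and higher for the ccnd1 genes. Among the 9981 kept probe sets, 17.0% were lower without overlap and 20.4% higher without overlap. Because the genes were chosen on this contrast, nothing is read from that count. Of the kept probe sets, 0.862% had a difference at or below that of ccna1.L and 0.741% at or below that of ccna1.S, while 9.2% lay at or above ccnd1.L and 5.5% at or above ccnd1.S.

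The cyclin genes also differed in how much they varied within a group, given here as a description. The within-group SD of ccna1.L was 1.11 on the log2 scale and that of ccna1.S 0.75, against a median of 0.33 over the kept probe sets, with quartiles of 0.21 and 0.49. Thus 97.8% of kept probe sets varied less within groups than ccna1.L, and 91.7% less than ccna1.S. Among ICD arrays the highest ccna1.L signal was 4.19 times the lowest, and among HMM arrays 3.89 times. The corresponding factors for ccna1.S were 3.62 and 1.71. The ccnd1 genes were at the other end. Their within-group SDs were 0.20 for ccnd1.L and 0.15 for ccnd1.S, and 22.1% and 11.4% of kept probe sets varied less. Dim probe sets carry a larger relative error in MAS5 values, and the ccna1 genes were dim in ICD; the part of that error in their spread was not tested.

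The homeologs of each cyclin had differences of like size. For ccna1 the .L difference minus the .S difference was 0.13, with a within-group SD of 0.56 for the .L to .S log ratio. Leaving out HMM replicate 2 gave 0.71, HMM replicate 1 gave -0.46 and ICD replicate 3 gave 0.19, so no order of the homeologs held across these omissions. For ccnd1 it was -0.22, with a within-group SD of 0.14, and stayed between -0.32 and -0.11 with each array left out. Over all 690 genes with kept probe sets of both homeologs, the median size of this quantity was 0.28, with quartiles of 0.12 and 0.50. Both cyclins lay between those quartiles. Homeologs are close in sequence, and how far a probe set of one also binds RNA of the other was not tested.

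**Figure D2:**
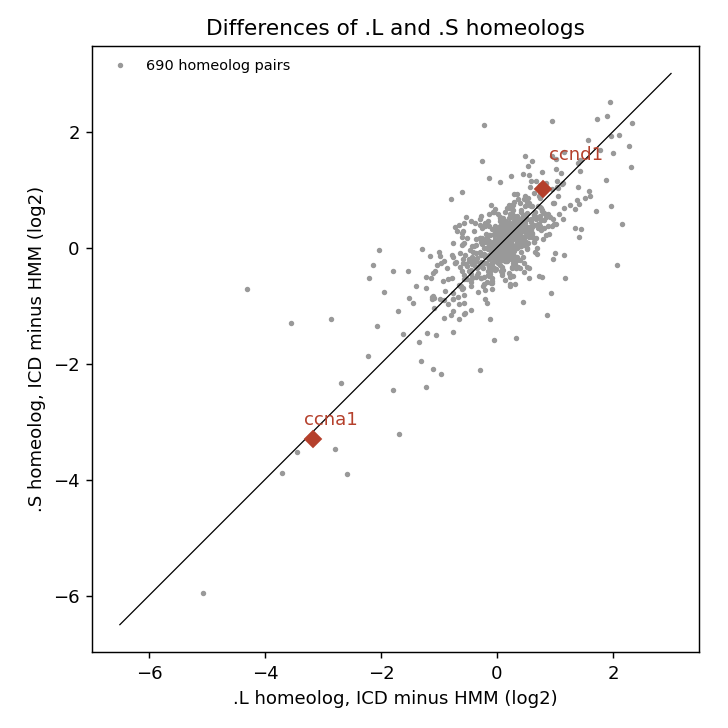
ICD minus HMM difference (log2) of the .L homeolog against that of the .S homeolog for 690 genes (grey points), with ccna1 and ccnd1 as red diamonds and the line of equal differences. The points of ccna1 (-3.17 and -3.30) and ccnd1 (0.79 and 1.01) lie close to the line.

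Likeness across the 5 arrays was measured as the root mean square distance between profiles, each centred on its own mean on the log2 scale. The ccna1 homeologs were 0.44 apart and the ccnd1 homeologs 0.15, where the median of the 690 pairs was 0.32. Among 5432 other genes with a symbol, the closest to ccna1.L, the brighter cyclin A1 probe set, were cat2.L (0.187), ak8.L (0.192), iqca1.L (0.200), spata6l.L (0.221) and tm4sf1.L (0.233). The gene ak8 encodes an adenylate kinase found in motile cilia, and iqca1 the vertebrate counterpart of a subunit of the axoneme's dynein regulatory complex in the alga Chlamydomonas. No function is given here for cat2, the closest, or for spata6l and tm4sf1, so no shared function is read from these genes. For example, spata6l.L read 22.0, 67.7 and 76.7 on the ICD arrays, against 347.0 and 890.7 with HMM. Each of these genes, like ccna1.L, was lowest on ICD replicate 1 and highest on HMM replicate 2.

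The closest profiles to ccnd1.S were those of c1d.L (0.040), epcam.L (0.040), nop14.L (0.047), ints4.L (0.055) and nop16.S (0.070). The gene epcam encodes an epithelial adhesion molecule, c1d a cofactor of the nuclear exosome, nop14 and nop16 nucleolar proteins of ribosome assembly, and ints4 a subunit of the Integrator complex. The epcam.L signal was 4839.5, 4233.6 and 4670.6 on the ICD arrays, against 2609.8 and 2180.1 with HMM. These distances are smaller than those around ccna1.L, and the profile of ccnd1.S itself spans a smaller range. All these genes were chosen for their likeness on the same arrays, so their own differences are not independent of it.

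Markers of multiciliated cells moved with cyclin A1. The summed signal of the 12 measured markers was 359.3, 1016.1 and 1386.8 on ICD replicates 1 to 3, and 5098.9 and 9905.0 on the HMM arrays. The order of the arrays was the same as for both ccna1 genes. That order was shared more widely. The mean profile of the ionocyte markers had it, at -2.65, -2.27 and -2.03 on ICD replicates 1 to 3 and 2.95 and 3.99 on the HMM arrays. So did the first principal component of all kept probe sets (59.2% of the variance), with the sign turned. The mean profile of the multiciliated list lay 0.33 from ccna1.L and 0.22 from ccna1.S. None of the 12 had a signal of 0 on any array; dnah9.S and myb.S were too dim to keep, and the defining genes foxj1, mcidas and gmnc were not analysed here. Of the 12, 11 were lower in ICD and ccno.L did not pass, with a median difference of -3.03, where ccna1.L had -3.17. That count was 12, 0 and 6 with ICD replicate 1, 2 and 3 left out, omissions added after seeing the data. Over all 9981 kept probe sets, 481, 21 and 121 were called lower under these omissions, against 349 with all arrays. Without either HMM replicate a lone HMM array is left, so no count is given here. The 10 ionocyte markers summed to 187.1 to 334.1 in ICD and 14035.2 to 25827.5 in HMM, with a median difference of -5.97. Under the same omissions of ICD replicate 1, 2 and 3, 10, 9 and 10 of these 10 were called lower. The part of multiciliated cells or ionocytes in the cyclin A1 result was not tested.

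**Figure D3:**
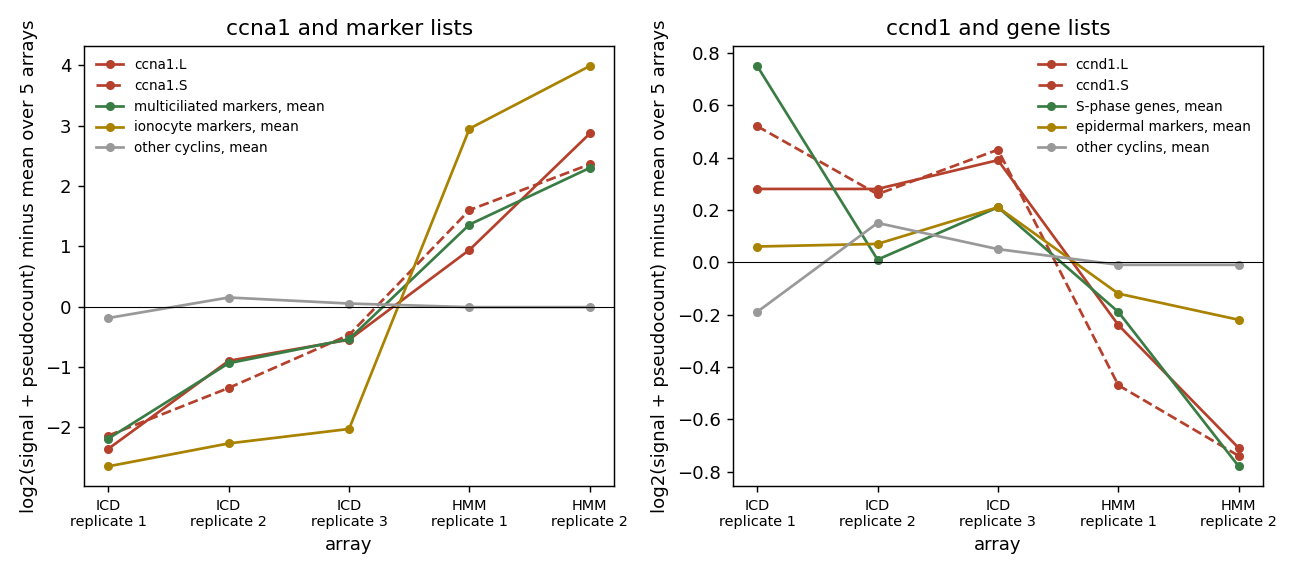
Centred log2 profiles over the 5 arrays; each point is 1 array, and lines only join points of the same gene or list mean. Left, ccna1.L and ccna1.S run beside the mean of 12 multiciliated markers (distances 0.33 and 0.22), and the ionocyte mean has a wider step between groups; right, ccnd1.L and ccnd1.S beside the means of 20 S-phase genes (0.26 and 0.22) and 17 epidermal markers.

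Beside cyclin D1, genes used in S phase were mostly higher without passing the test. Their summed signal was 6331.3, 3686.3 and 4373.0 on the ICD arrays, against 2997.2 and 2167.2 with HMM, so the groups did not overlap, as for both ccnd1 genes. The list's mean profile lay 0.26 from ccnd1.L and 0.22 from ccnd1.S. Those of other lists were nearly as close: 0.27 and 0.37 for the epidermal markers, 0.28 and 0.35 for the E2F list, and 0.32 and 0.36 for 2 muscle genes. The list of possible inputs to cyclin D1 transcription, described below, lay at 0.29 and 0.34. ICD replicate 1 was highest for the S-phase list, with geminin at 943.4 for gmnn.L where ICD replicates 2 and 3 read 124.1 and 168.9. Of the cyclin D1 genes, ccnd1.L was level across ICD arrays. The ccnd1.S signal was highest on ICD replicate 1 (1506.3, with 1260.8 and 1415.3 on ICD replicates 2 and 3). Its order of the arrays was that of the S-phase sum, and also that of the muscle sum (845.8, 652.3 and 737.5, then 607.0 and 317.7). The groups did not overlap for the muscle sum either, nor for the neural sum given below. Of the 2 muscle genes, 1 had a difference above 0 and 1 below, and a further 9 of that list were too dim to keep. The summed list of possible inputs to cyclin D1 transcription was likewise apart, at 9175.7 to 10468.3 in ICD and 6019.8 to 6769.5 in HMM. None of the 20 measured genes was called by limma (10 had an unadjusted p under 0.05), 19 had differences above 0, and the median was 0.84 against 0.08 for all kept probe sets. The share of all kept probe sets with an unadjusted p under 0.05 was not counted, so nothing is read from such counts, here or below. The sliding clamp genes pcna.L and pcna.S differed by 0.57 and 1.04 (limma adjusted p = 0.251 and 0.0759). Epidermal markers summed to 56194.2 to 72298.7 in ICD and 55872.6 to 63355.7 in HMM and overlapped. Of 17 measured, 9 had differences above 0 and 8 below, with a median of 0.11 against 0.08 for all kept probe sets. Of the 17, 4 were called higher (epcam.L, krt18.1.L, krt18.1.S and tp63.L), where 1.55% of all kept probe sets were. That count was 5 with ICD replicate 1 left out, where 362 of all kept probe sets were called higher. It was 0 with ICD replicate 2 or 3 left out, where 1 and 30 of all kept probe sets were. Without either HMM replicate a lone HMM array is left, so no count is given here. The 13 measured neural and neural crest markers summed to 2448.3 to 5032.5 in ICD and 1352.1 to 1433.4 in HMM. All 13 had differences above 0, with a median of 0.86, and a further 10 genes of this list were too dim to keep. The part of cell number or cell type in the cyclin D1 result was not tested.

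With all arrays, none of the other cyclins passed the test. Of 27 measured, none was called in either direction, where 1.55% of all kept probe sets were called higher and 3.5% lower. An unadjusted limma p under 0.05 was seen for 7 of the 27, and the share of all kept probe sets with one was not counted. The median of the 27 was 0.08, the same as that of all kept probe sets. The closest relative of cyclin A1, ccna2, stood on the other side of 0: ccna2.L read 267.2, 268.6 and 250.6 on the ICD arrays, against 187.3 and 114.7 with HMM. Its difference was 0.81 (limma adjusted p = 0.174), and that of ccna2.S was 0.59 (limma adjusted p = 0.423). For the D-type relative ccnd2.L the signal was 62.3, 49.9 and 43.8, then 101.5 and 95.2, a difference of -0.86 (limma adjusted p = 0.145), opposite in sign to ccnd1. Whether the members of either family differ from each other was not tested, because ccna1 and ccnd1 were chosen on this contrast.

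The difference nearest to that of ccna1 was seen for ccno.L, which encodes a cyclin used to amplify centrioles in multiciliated cells and is also on the marker list above. It read 31.7, 319.5 and 439.0 on the ICD arrays, against 1303.0 and 1898.8 with HMM, a difference of -3.17 ± 0.97 (SE) and so not past the threshold (limma adjusted p = 0.128). Leaving out ICD replicate 1 gave -2.05, which was called (limma adjusted p = 0.00668). ICD replicate 1 was the lowest array for it, as for ccna1.L and ccna1.S. Among mitotic cyclins, ccnb1.2.L and ccnb1.2.S differed by -0.78 and -0.53, and ccnb2.L, ccnb2.S, ccnb3.L and ccnb3.S by 0.39, 0.31, 0.56 and 0.76. The cyclin E genes, which act with CDK2 at the start of S phase, differed by 0.04 for ccne1.L, -0.07 for ccne1.S and 0.77 for ccne2.L. The remaining cyclins, among them ccnf.L (0.77), ccng1.L (-0.64) and ccnj.S (0.73), lay between -0.64 and 0.77, and ccnb1.S, ccnt1.L and a further ccnd2 gene were too dim to keep.

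**Figure D4:**
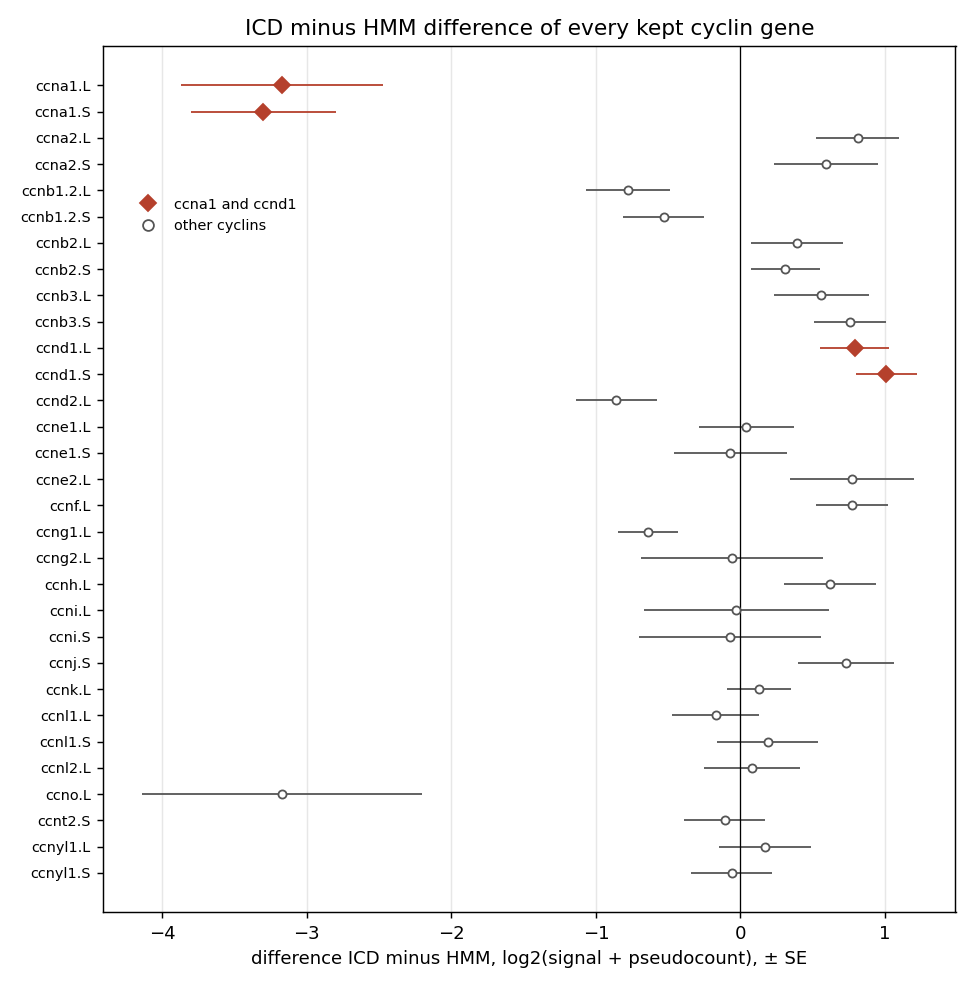
ICD minus HMM difference (log2 of signal plus 5.9) with its SE for the 31 kept cyclin genes, 1 probe set a gene; red diamonds are the ccna1 and ccnd1 genes and open circles the other 27. The ccna1 genes and ccno.L lie near -3.2, apart from the other cyclins, which lie between -0.86 and 1.01, the ccnd1 genes included.

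The kinase partners of both cyclins did not pass the test either. The cyclin D partner cdk4.S read 547.4, 369.9 and 528.4 on the ICD arrays, against 405.7 and 220.9 with HMM, a difference of 0.65 (limma adjusted p = 0.352). The cyclin A and E partner cdk2.S differed by 0.87 (limma adjusted p = 0.290), and cdk1.L and cdk1.S, partners of cyclins A and B, by -0.21 and -0.73 (limma adjusted p = 0.703 and 0.335). Of 12 measured CDK genes, associated proteins and inhibitors, 1 was called lower and none higher, where 3.5% and 1.55% of all kept probe sets were, so 1 of 12 is not read as a result about the list. The called gene was cdk7.L, the kinase that activates other CDKs by phosphorylating them, which fell from 470.7 and 518.5 in HMM to 93.1, 112.3 and 84.7 in ICD. Its difference was -2.29 ± 0.25 (SE; limma adjusted p = 0.0118). It was not called without HMM replicate 2 (adjusted p = 0.117) or without ICD replicate 2 (adjusted p = 0.0522), had an adjusted p of 0.0459 without ICD replicate 3, and a second probe set of cdk7.L was too dim to keep. Its partners in the same complex, ccnh.L and mnat1.L, differed by 0.62 and 0.07 (limma adjusted p = 0.360 and 0.903). The inhibitor genes cdkn1a, cdkn1b and cdknx, and cdk6, were not analysed here.

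Among 14 measured genes of the switch that turns CDK1 on and off, 1 was called lower, where 3.5% of all kept probe sets were, and nothing is read from that count. The called gene was bora.S, whose protein helps activate the mitotic kinase Plk1 and is a substrate of cyclin A with CDK1 in Xenopus egg extracts. It fell from 215.6 and 215.7 in HMM to 25.3, 35.4 and 23.9 in ICD, a difference of -2.72 ± 0.29 (SE; limma adjusted p = 0.0109, 0.115 without HMM replicate 2 and 0.0457 without ICD replicate 3). Its other probe set differed by -1.20 (limma adjusted p = 0.0416). With any array other than ICD replicate 1 left out, that probe set differed by -1.26 to -1.15 and was not called (adjusted p = 0.112 without ICD replicate 3, and up to 0.284), nor was it with no filter (0.067) or the stricter filter (0.0757). Of 19 measured genes of cyclin degradation none was called (3 had an unadjusted p under 0.05). Of all kept probe sets, 1.55% were called higher and 3.5% lower. Of the 19, 11 had differences above 0 and 8 below, cdc20.S at -0.72 among the latter. Their median was 0.09, against 0.08 for all kept probe sets. Of 9 measured genes on the retinoblastoma and E2F list, the pathway on which cyclin D acts, none was called (1 had an unadjusted p under 0.05). Nothing is read from either count. The 9 held none of rb1, rbl1 and rbl2, and rb1 and rbl2 were not analysed here. The differences of e2f1.L and e2f3.S were 0.52 and 0.23, with a list median of 0.32, and rbl1.L and mybl2.S were too dim to keep. With no filter on low signal, 1 degradation gene was called lower, the F-box gene fbxo31.S, named after its values were seen.

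Of 22 measured genes listed as possible inputs to cyclin D1 transcription (growth signalling, Wnt, Notch and Myc genes), 1 was called higher, where 1.55% of all kept probe sets were, and 17 had differences above 0, with a median of 0.59 against 0.08 for all kept probe sets. The called gene was hes4.L, a transcriptional repressor that Notch signalling induces, which rose from 1015.1 and 1075.1 to 2035.9, 2337.4 and 2476.1, a difference of 1.12 (limma adjusted p = 0.0247). It was not called in eBayes without trend (adjusted p = 0.0502) nor when ICD replicate 2 or 3 (adjusted p = 0.100 and 0.0792) or either HMM array (adjusted p = 0.0821 and 0.168) was left out, while its difference stayed between 1.06 and 1.16 there. Other hes genes did not all go the same way: hes4.S differed by 1.09, and hes1.L and hes1.S by -1.09 and -1.04. The brightest myc.S probe set read 310.0, 747.6 and 814.6 in ICD and 180.3 and 322.3 in HMM, a difference of 1.23 (not called, limma adjusted p = 0.210), and myc.L differed by 0.24. The groups overlapped for myc.S, at 310.0 in ICD against 322.3 in HMM. The ccnd1 genes were chosen on this contrast, so no comparison with them is drawn.

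Genes beside the cyclins on the chromosome were looked at as well, a choice made after the differences were known. Of the 24 positions within 3 protein-coding genes of the 4 cyclin genes in the RefSeq assembly Xenopus_laevis_v10.1, 5 held a kept gene and none was called (limma adjusted p = 0.174 to 0.935). Beside ccna1.S, smad9.S differed by -0.88. Beside ccna1.L, alg5.L differed by 0.16. Near ccnd1.S, ppfia1.S differed by 0.70 and fadd.S by -0.15, and near ccnd1.L, cttn.L differed by -0.09. The cyclin genes were picked for their differences, so smaller ones beside them were likely from the start. Nothing is read from these neighbours.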

How the data were processed

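As deposited, each probe set has a linear intensity value for every array. The submitters' processing notes name MAS5, without version or settings. MAS5 subtracts mismatch signal, which leaves dim probe sets with large relative errors, and scales arrays to a common trimmed mean (200.03 on each array here), so a change in total RNA would not show. The number of arrays limits the precision.

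The table held 15611 probe sets, 120 of them controls. Symbols came from the platform annotation: 9304 probe sets had 1 symbol, 195 several and 5992 none. Gene IDs of 9227 matched the RefSeq table of Xenopus_laevis_v10.1, which updated 2 symbols. Values were tested as log2(value + 5.9), the 10th percentile, in the 9981 probe sets that exceeded 42.6 (the 40th percentile) on 2 or more arrays. The test was limma 3.58.1 (R 4.3.3), lmFit and eBayes with trend on all 5 arrays without covariates, two-sided, Benjamini-Hochberg adjusted over the kept probe sets, threshold 0.05. The fit was tested on simulated data. List genes, matched by symbol, were represented by their brightest kept probe set, and ccna1 and ccnd1 entered no list count. The genes and lists were chosen with earlier results of these data known. Named genes were the cyclins, up to 4 called genes per list and direction, and a fixed set of CDK, E2F and growth genes. The 5 closest profiles to each cyclin's brighter probe set were named too. Outside this rule, cdc20.S, gmnn.L, mnat1.L, hes4.S, hes1.L, hes1.S, some marker genes and the chromosome neighbours were also named. Figures were drawn with matplotlib 3.10.9. Alternatives are given in the closing section.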

Additional observations from a re-analysis of the deposited data

How the results depend on the processing

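The 4 cyclin genes were picked on this contrast and their groups do not overlap, so their sign under the alternatives is no check of it. With each array left out they ran from -4.14 to -2.20 for ccna1.L, -3.72 to -2.89 for ccna1.S, 0.55 to 1.02 for ccnd1.L and 0.88 to 1.14 for ccnd1.S, and the homeolog differences from -0.46 to 0.71 for ccna1 and -0.32 to -0.11 for ccnd1. All called probe sets numbered 155 higher and 349 lower; with each array left out, fits with fewer residual degrees of freedom and, for HMM, a lone array assumed to vary like the others, gave 1 to 362 higher and 10 to 481 lower. Over the same omissions the called genes ran from 0 to 3 higher for the genes upstream of cyclin D1, 0 to 1 lower for the CDK1 switch, 0 to 1 lower for the CDK list and 0 to 1 lower for the cyclins.

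The groups share replicate numbers 1 and 2, and no label says what a number marks. Deviations from the group means correlated at 0.651 between the arrays numbered 1 and at 0.508 between those numbered 2, across probe sets; ICD replicate 3, which has no partner, correlated at 0.4 with HMM replicate 2. With 2 HMM arrays, each ICD array's correlation with the other HMM array is the same with the sign turned. The deviations of the ICD arrays also cancel out within their group, so the 0.508 is not an independent second observation. With the replicate number as a block, the differences were -3.54, -3.72, 0.75 and 1.00 for ccna1.L, ccna1.S, ccnd1.L and ccnd1.S. ICD replicate 3 is alone in its block and adds nothing to this fit. The differences therefore rest on the arrays numbered 1 and 2 and equal those without ICD replicate 3. The block fit, which has fewer residual degrees of freedom than the main fit, called 744 of the 9981 kept probe sets higher and 970 lower. Of 22 genes upstream of cyclin D1 it called 5 higher and 2 lower. It called 8 of 20 S-phase genes higher, 2 of 27 cyclins lower and 2 of 19 degradation genes lower. In each of the CDK (12 genes), CDK1 switch (14) and E2F (9) lists 1 gene was called higher. Since this fit called more probe sets everywhere, nothing is read from these list counts. Upstream of cyclin D1, 0 genes were called higher in eBayes without trend, and 1 degradation gene was called lower with no filter. Other settings run were a pseudocount of 23.6 or none, centring on medians, and quantile normalization. The causes of these changes were not tested. Low signal over background limits what can be said of ccna1 in ICD, where replicate 1 read 22.0 and 28.9.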
